A study of Mus musculus with 8 samples.

Results

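Apolipoproteins are the protein components of plasma lipoproteins, and 10 of their genes are described here in mouse liver: Apoa1, Apoa2, Apoa4, Apoa5, Apob, Apoc1, Apoc2, Apoc3, Apoe and Apom. They were chosen by name, as apolipoprotein genes with at least 1 array probe set that carried their symbol alone, and are 10 of the 19560 genes measured. Liver RNA came from 8 male mice aged 6 weeks, with 1 array per mouse. In 4 mice the kinase TAK1 (gene Map3k7) and caspase 8, an initiator protease of apoptosis, were both deleted in liver parenchymal cells, abbreviated LPC in the labels, and these mice are called Tak1/Casp8. The other 4, called Tak1/Rip3, had the same LPC deletion of TAK1 and lacked the necroptosis kinase RIP3 (gene Ripk3) in the whole animal, written Rip3-/- in the labels. All 8 mice therefore lacked TAK1 in LPC, mice with intact TAK1 were not analysed here, and the sources used here do not give the promoter that drove the LPC deletions. The comparison sets loss of caspase 8 in LPC against loss of RIP3 in the whole animal, both beside the LPC loss of TAK1. None of the 8 mice lacked TAK1 alone, so a difference cannot be assigned to either loss.

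The liver makes most plasma apolipoproteins and ships them on very low density lipoprotein (VLDL), which carries triglyceride, and on high density lipoprotein (HDL), which carries cholesterol back to the liver. Apolipoprotein B is the structural core of VLDL, and A1 and A2 are the main proteins of HDL. The smaller proteins move between particles and set how fast lipoprotein lipase, the triglyceride-splitting enzyme on capillary walls, and the liver receptors act on them.

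The differences of the 10 genes, Tak1/Casp8 minus Tak1/Rip3, lay between -0.33 and 0.51 in log2 units. Apoa5, which promotes lipolysis, was the only member past the test, 1.42-fold higher in Tak1/Casp8 livers. Apoc2, the cofactor that lipoprotein lipase requires, lay 1.25-fold below its Tak1/Rip3 level with groups that did not overlap, but missed the threshold. The bright Apoa1, Apob and Apoe differed by no more than 0.04 on the log2 scale. Most of their probe sets lay near the top of the scale, where arrays can compress differences in mRNA. With 1 of 10 called, against 6.69% of all 19560 genes called in either direction (2.64% higher in Tak1/Casp8 and 4.05% lower), the share of called members does not stand apart from the background. Called means an adjusted p under 0.05 in limma, a linear model with variances moderated across genes, after Benjamini-Hochberg adjustment over all 19560 genes. Every difference is Tak1/Casp8 minus Tak1/Rip3 in log2 units, and levels are log2 intensities after RMA, the authors' normalisation.

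The promoters of 3 members are shown because these members span the result: Apoa5 had the largest positive difference, Apoc2 the largest negative one and Apoe the smallest. Each is the 250 bases before a transcription start, 5′ to 3′ on the gene's strand, from RefSeq on GRCm38.p6, and capitals mark the motifs found. The positions are chr9:46268358-46268607 (plus strand) for Apoa5, chr7:19677942-19678191 (minus strand) for Apoc2 and chr7:19699189-19699438 (minus strand) for Apoe.
Apoa5: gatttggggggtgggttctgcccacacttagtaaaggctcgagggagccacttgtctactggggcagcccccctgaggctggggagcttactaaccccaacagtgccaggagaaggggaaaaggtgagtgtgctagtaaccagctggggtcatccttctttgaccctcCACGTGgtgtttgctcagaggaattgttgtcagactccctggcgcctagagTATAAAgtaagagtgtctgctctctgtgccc
Apoc2: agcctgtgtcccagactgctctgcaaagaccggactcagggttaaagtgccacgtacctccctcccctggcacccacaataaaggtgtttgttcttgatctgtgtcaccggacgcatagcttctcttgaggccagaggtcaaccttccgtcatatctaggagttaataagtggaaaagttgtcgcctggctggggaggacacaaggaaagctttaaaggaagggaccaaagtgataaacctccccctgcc
Apoe: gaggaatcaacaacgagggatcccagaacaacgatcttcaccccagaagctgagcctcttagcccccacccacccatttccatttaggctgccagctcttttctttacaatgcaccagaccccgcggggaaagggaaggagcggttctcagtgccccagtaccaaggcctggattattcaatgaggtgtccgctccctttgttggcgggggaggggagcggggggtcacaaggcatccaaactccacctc
Both strands were searched for 4 motifs: the TATA box TATAAA, the E-box CACGTG, the C/EBP motif TTGCNNAA and the HNF4 core CAAAGTCCA. Apoa5 held 1 TATA box that begins 31 bases before its start and 1 E-box that begins 82 bases before it. None of the 4 motifs was found in the Apoc2 and Apoe windows shown. The table lists 3 starts for Apoe, and the window of 1 of the other starts held the TATA letters. Of all 32851 promoter windows in the table, 12.4% held the TATA letters, 6.02% the E-box, 9.56% the C/EBP letters and 0.384% the HNF4 core. The table held a promoter for 8 of the 10 members.

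The labels were checked on the targeted genes first. Casp8 was lower in Tak1/Casp8 livers (9.97 ± 0.13 against 11.27 ± 0.13, SD, n = 4 each), and Ripk3 was lower in Tak1/Rip3 livers (7.90 ± 0.09 in Tak1/Casp8, 6.92 ± 0.38 in Tak1/Rip3). Both passed the test, and Map3k7, targeted in both groups, differed by -0.08 ± 0.10 (SE). All 8 hepatocyte markers had means above 12.8 in both groups, the level that 1% of single probe sets exceed. Array medians lay between 8.06 and 8.16. Least like the rest of their own groups, by mean correlation, were Tak1/Casp8 replicate 4 (0.985) and Tak1/Rip3 replicate 2 (0.987). The number of arrays limits the precision, and RNA of bulk tissue cannot tell fewer cells of a type from less RNA per cell.

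**Figure D1:**
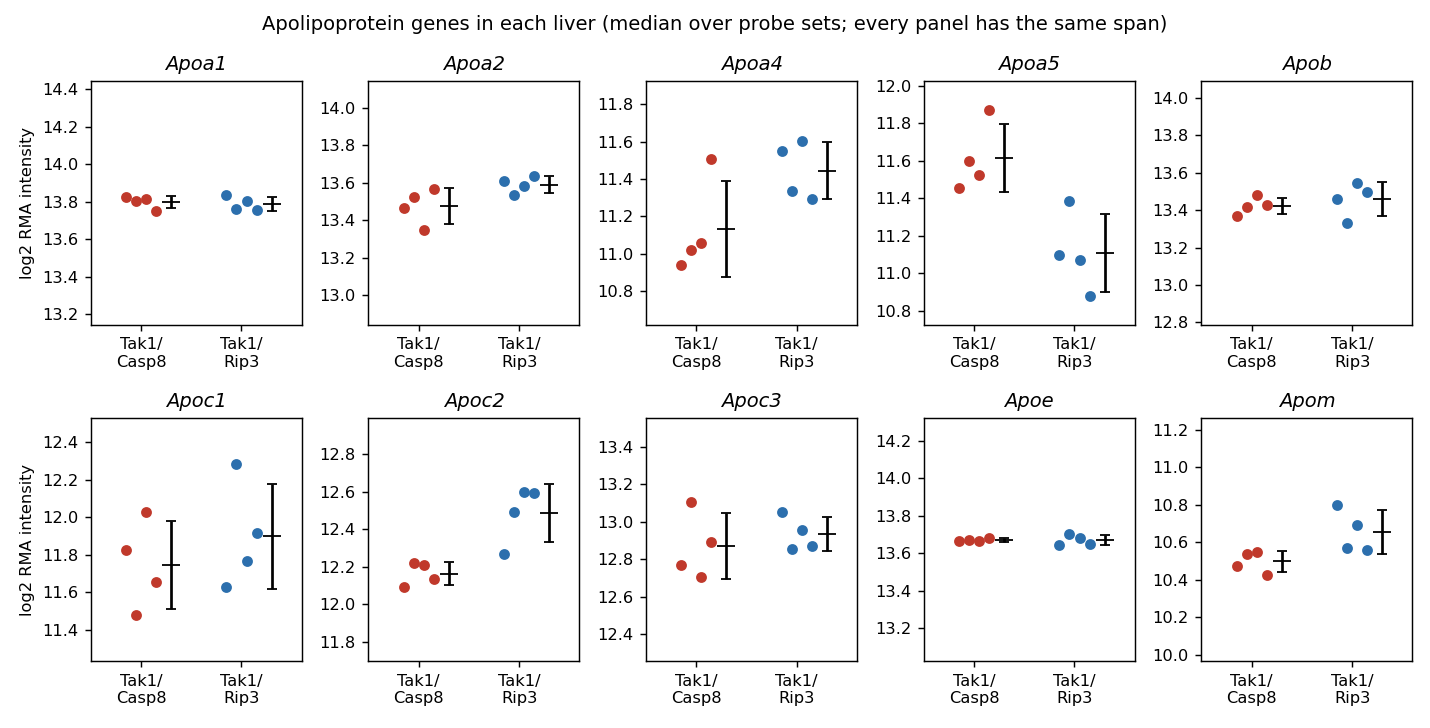
Log2 RMA intensity (y axis) of each of the 10 genes in the 4 Tak1/Casp8 livers (red, left) and the 4 Tak1/Rip3 livers (blue, right), replicates 1 to 4 from left to right, with the mean and SD as black bars; every panel spans the same number of log2 units. The groups are apart for Apoa5 and Apoc2, and nearly touch for Apom.

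All 10 genes were bright on the arrays. Their mean levels lay between percentiles 91.1 and 99.97 of the 19560 genes, and 9 of them were in the top 5%. Intensities of different probe sets do not rank genes by amount of mRNA, so these percentiles describe only how near each member came to the top of the scale. The highest values on the 8 arrays were 14.5 to 14.8, and 44 of the members' 77 probe sets had mean levels above 12.8.

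Apoa5 encodes a low-abundance plasma protein made in the liver that promotes lipolysis of triglyceride-rich particles. It had 11.46, 11.60, 11.53 and 11.87 in Tak1/Casp8 livers, against 11.10, 11.38, 11.07 and 10.88 in Tak1/Rip3 livers. Every Tak1/Casp8 array was above every Tak1/Rip3 array, with a gap of 0.07 between the groups. The difference was 0.51 ± 0.13 (SE, 4 livers per group, 95% interval 0.22 to 0.80, limma adjusted p = 0.0463). The call sits just inside the threshold. It was kept without Tak1/Rip3 replicate 2 (limma adjusted p = 0.0226) and lost without any 1 of the other 7 arrays, with limma adjusted p between 0.0582 and 0.128 and differences of 0.42 to 0.56.

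All 6 Apoa5 probe sets were higher in Tak1/Casp8 livers, by 0.33 to 0.71, and in 4 of them the groups did not overlap. The only one past its own test, probe set 10585021, had 10.31, 10.05, 10.23 and 10.39 in Tak1/Casp8 livers, against 9.54, 9.69, 9.53 and 9.37 in Tak1/Rip3 livers (difference 0.71 ± 0.12 SE, 4 livers per group, limma adjusted p = 0.0347 over all probe sets). The brightest Apoa5 probe set, with a mean level of 12.5, differed least, by 0.33, and did not pass when taken alone for the gene (limma adjusted p = 0.142).

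Apoc2 encodes the small protein without which lipoprotein lipase is inactive. Its values were 12.09, 12.22, 12.21 and 12.13 in Tak1/Casp8 livers, against 12.27, 12.49, 12.60 and 12.59 in Tak1/Rip3 livers. The groups did not overlap, and Tak1/Rip3 replicate 1 was the nearest to the other group, 0.05 above its highest array. The difference was -0.33 ± 0.10 (SE, 4 livers per group, 95% interval -0.55 to -0.10) and did not pass (limma adjusted p = 0.0851).

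All 5 Apoc2 probe sets were below their Tak1/Rip3 level, by -1.03 to -0.33, and in 4 of them the groups did not overlap. The median over probe sets is the value of a single one of them on every array, the one that differed least. Probe set 10560612 had 9.03, 8.54, 8.66 and 9.11 in Tak1/Casp8 livers, against 9.92, 9.91, 9.78 and 9.84 in Tak1/Rip3 livers (difference -1.03 ± 0.15 SE, 4 livers per group, limma adjusted p = 0.0185 over all probe sets). In the brightest, 13.19 to 13.22 in Tak1/Casp8 livers stood against 13.52 to 13.65 in Tak1/Rip3 livers, a difference of -0.39 with little spread in either group. Apoc2 as a gene passed when its probe sets were averaged (-0.50, limma adjusted p = 0.00173) and when those above the 99th percentile were left out (-0.84, limma adjusted p = 0.00121). It also passed with its brightest probe set alone (-0.39, limma adjusted p = 0.0285), with its dimmer ones (-0.84, limma adjusted p = 0.00296) and with trend and robust moderation (limma adjusted p = 0.0355). In the 8 fits with an array left out it never passed (-0.40 to -0.29, limma adjusted p between 0.0558 and 0.207). Nor did it pass with quantile normalisation (limma adjusted p = 0.0813) or arrays shifted to a common median (limma adjusted p = 0.152). Array weights and the filter each gave a limma adjusted p of 0.0541. A test with variances separate for each gene and group gave an adjusted p of 0.178.

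Apoc3 and Apoc1 encode small proteins that slow lipolysis or the uptake of remnant particles. Apoc3 had 12.77, 13.11, 12.71 and 12.89 in Tak1/Casp8 livers, against 13.05, 12.86, 12.96 and 12.87 in Tak1/Rip3 livers, and the groups overlapped (-0.07 ± 0.11 SE, 4 livers per group, limma adjusted p = 0.785). Apoc1 had 11.83, 11.48, 12.03 and 11.65 in Tak1/Casp8 livers, against 11.63, 12.28, 11.77 and 11.92 in Tak1/Rip3 livers. It was the most variable C member within groups, with SDs of 0.23 and 0.28 in Tak1/Casp8 and Tak1/Rip3 livers and a difference of -0.15 ± 0.16 (SE, 4 livers per group, limma adjusted p = 0.644). The Apoc1 value is that of a single one of its 3 probe sets on every array. In Tak1/Casp8 and Tak1/Rip3 livers the brightest Apoc1 probe set had SDs of 0.03 and 0.16, and the dimmest 0.36 and 0.30. The dimmest probe sets of Apoc3 and Apoc1, at mean levels of 8.88 and 7.28, differed by -0.42 and -0.44 without passing.

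Apoa4 encodes a protein of chylomicrons and HDL made by the intestine and, in mice, also by the liver. It had 10.94, 11.02, 11.06 and 11.51 in Tak1/Casp8 livers, against 11.55, 11.33, 11.60 and 11.29 in Tak1/Rip3 livers. The first 3 Tak1/Casp8 arrays lay below all Tak1/Rip3 arrays, and replicate 4 lay inside their range. The difference was -0.31 ± 0.14 (SE, 4 livers per group, 95% interval -0.62 to -0.01, limma adjusted p = 0.226). Without Tak1/Casp8 replicate 4 it was -0.44 and passed (limma adjusted p = 0.0427), and it was -0.47 when both of these least similar arrays were omitted, a choice made after seeing the data (limma adjusted p = 0.0386).

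The 6 Apoa4 probe sets were unlike each other in level, with means from 7.31 to 13.3, so their median averages a dim and a bright one. All 6 were below their Tak1/Rip3 level, by -0.53 to -0.15, and none passed singly. In 2 of them the groups did not overlap. Of the markers of enterocytes, the absorbing cells of the gut, 3 of 4 were not called: Sis, Alpi and Vil1 differed by 0.32, 0.13 and 0.01. The fourth, the fatty acid binding protein Fabp2, had 8.45, 9.50, 8.08 and 10.03 in Tak1/Casp8 livers, against 10.25, 10.62, 10.50 and 10.64 in Tak1/Rip3 livers (-1.49 ± 0.36 SE, 4 livers per group, limma adjusted p = 0.0350), and its highest Tak1/Casp8 array was also replicate 4. The marker list averaged 6.37 to 7.07 per array in Tak1/Casp8 livers and 6.74 to 7.10 in Tak1/Rip3 livers, with 1 marker under the lower quartile of every array, and its part in the Apoa4 values was not tested.

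Apoa1, whose protein builds HDL and activates the cholesterol-esterifying enzyme LCAT, ranged over 13.75 to 13.83 in Tak1/Casp8 livers and 13.76 to 13.84 in Tak1/Rip3 livers. Apoa2, the other main HDL protein, ranged over 13.35 to 13.56 in Tak1/Casp8 livers and 13.53 to 13.64 in Tak1/Rip3 livers. Neither pair of groups was apart. Differences were 0.01 (95% interval -0.17 to 0.19) for Apoa1 and -0.11 (95% interval -0.31 to 0.08) for Apoa2. All 4 Apoa1 probe sets and 3 of 4 Apoa2 probe sets had means above 12.8, and the dimmest Apoa2 probe set, at 12.6, differed by 0.13, in the direction opposite to the other 3.

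Apom encodes a lipocalin that carries sphingosine-1-phosphate on HDL. Its values were 10.47, 10.54, 10.55 and 10.43 in Tak1/Casp8 livers, against 10.80, 10.57, 10.69 and 10.56 in Tak1/Rip3 livers. The groups did not overlap but were only 0.01 apart, and the difference of -0.16 ± 0.09 (SE, 4 livers per group) did not pass (limma adjusted p = 0.375). All 6 of its probe sets had differences below 0, from -0.24 to -0.07. With Apoa5 and Apoc2, Apom made 3 of 10 members whose groups did not overlap, beside 14.6% of all genes.

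Apob, the VLDL protein, ranged over 13.37 to 13.48 in Tak1/Casp8 livers and 13.33 to 13.54 in Tak1/Rip3 livers, and its 34 probe sets differed by -0.20 to 0.13, 11 of them above 0 and 23 below. Apoe, the ligand with which remnants bind liver receptors and a product of hepatocytes and macrophages, ranged over 13.66 to 13.68 in Tak1/Casp8 livers and 13.65 to 13.70 in Tak1/Rip3 livers. The groups overlapped for both genes. The 95% intervals were -0.23 to 0.16 for Apob and -0.17 to 0.17 for Apoe. All 5 Apoe probe sets and 26 of 34 Apob probe sets had means above 12.8, near the top of the scale, where arrays can compress differences in mRNA, so these intervals bound the measured intensity and not the mRNA.

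**Figure D2:**
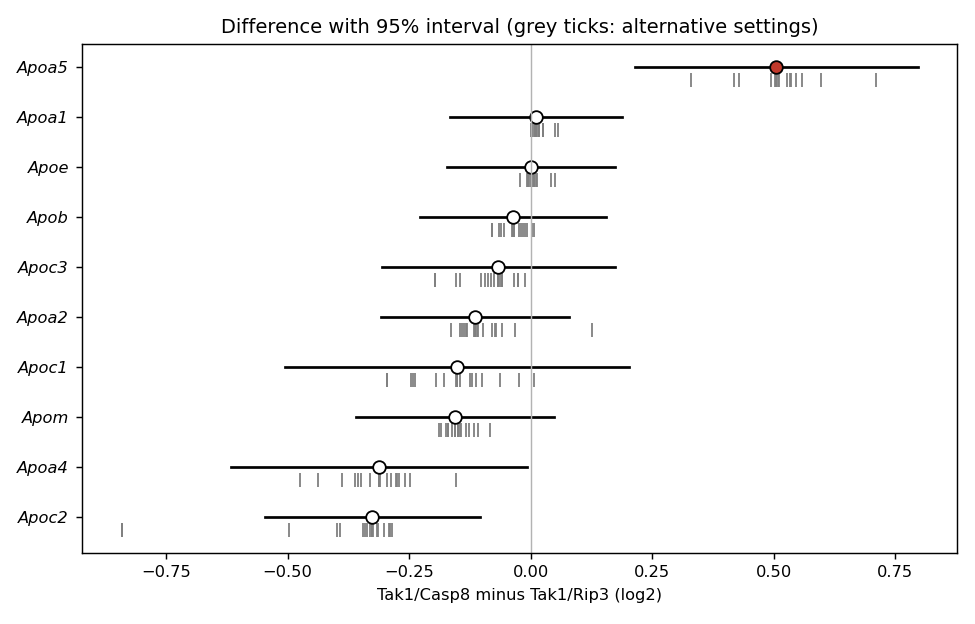
Difference in log2 units (x axis) of each gene (y axis), with its 95% interval as a line, filled where it passed the test; grey ticks give the difference under the alternative settings and with arrays left out. Apoa5 stays above 0 and Apoc2, Apoa4, Apom and Apoc3 stay below 0 at every tick. Ticks of the filter, trend and robust moderation and separate variances repeat the main difference.

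The probe sets nearest the top of the scale differed least. The 44 with mean levels above 12.8 had a median absolute difference of 0.06 and a largest one of 0.39, and none passed. The 33 others had a median absolute difference of 0.20 and a largest one of 1.03, and 2 passed. Spread moved with level too, with median SDs of 0.06 in Tak1/Casp8 and 0.06 in Tak1/Rip3 livers for the bright probe sets, and of 0.12 and 0.17 for the others. The bright and the other probe sets belong to different mixes of genes. Apob gave 26 of the 44 bright ones, Apoe 5 and Apoa1 4, while Apoa5 and Apom gave 0. Within Apoc2 the brightest probe set differed by -0.39, and those with mean levels under 12.8 by -0.33, -1.03 and -0.37. The parts of gene and of saturation in this were not tested. In all, 2 of 77 probe sets passed beside 1.63% of 223771 probe sets, and the groups did not overlap in 15 of 77 beside 11.4%.

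**Figure D3:**
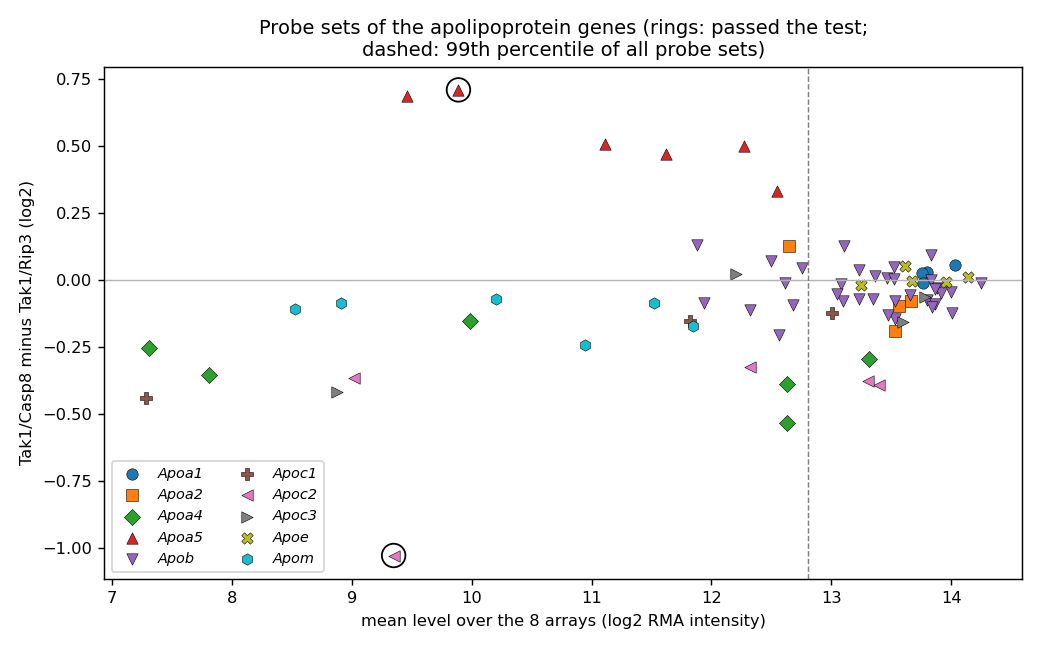
Difference in log2 units (y axis) of the 77 probe sets against their mean level over the 8 arrays in log2 RMA intensity (x axis), with a symbol and colour per gene and rings around the 2 that passed. The 6 Apoa5 probe sets lie above 0, the 5 Apoc2 probe sets below 0, and those right of the dashed line at 12.8 lie within 0.39 of 0.

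Most members lie in gene clusters, and Apoa5 was the only clustered member past the test. In the order of the RefSeq gene table, Apoa1, Apoc3, Apoa4 and Apoa5 follow each other on chromosome 9, with differences of 0.01, -0.07, -0.31 and 0.51. On chromosome 7 the order is Apoc2, Apoc4, Apoc1 and Apoe, with differences of -0.33, -0.21, -0.15 and 0.00. Apoc4, which rests on 1 probe set, is no member and did not pass. Of 13 measured genes that flank either cluster only Bcam, a laminin receptor, passed. It was 1.42-fold lower in Tak1/Casp8 livers (8.32 ± 0.08 against 8.82 ± 0.17, SD, n = 4 each, limma adjusted p = 0.0181), and the call was lost without Tak1/Rip3 replicate 3 (limma adjusted p = 0.0508). Tomm40 and Pafah1b2 differed by -0.28 and -0.33 without passing.

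Other genes of lipoprotein metabolism were read in 5 more lists. With the flanking genes, 8 of 76 measured genes passed, 5 higher and 3 lower in Tak1/Casp8 livers. Of all genes 6.69% passed, 2.64% higher and 4.05% lower, and the counts per list below are to be read beside these shares. The median difference of the 76 was 0.08, beside 0.01 over all genes and -0.09 over the 10 members. Among 11 other apolipoproteins and HDL-borne proteins Saa4, a serum amyloid carried on HDL, was 1.59-fold higher (12.06 ± 0.19 against 11.38 ± 0.09, SD, n = 4 each, limma adjusted p = 0.00668). The chaperone clusterin (Clu) and the phospholipid transfer protein (Pltp) differed by 0.33 and 0.38 and did not pass.

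In assembly and secretion 2 of 13 passed, in opposite directions. Tm6sf2, which helps load lipid onto VLDL, had 11.43, 11.42, 11.25 and 11.48 in Tak1/Casp8 livers, against 11.90, 11.73, 12.22 and 11.95 in Tak1/Rip3 livers (-0.55 ± 0.12 SE, 4 livers per group, limma adjusted p = 0.0189). Its groups did not overlap, although the call was lost without Tak1/Casp8 replicate 2 or 3 or Tak1/Rip3 replicate 4 (limma adjusted p = 0.0514, 0.0550 and 0.0560). Mia2, a cargo adaptor at the endoplasmic reticulum exit sites, differed by 0.39 ± 0.10 (SE, 4 livers per group, limma adjusted p = 0.0464), and that call was lost without any 1 array but Tak1/Rip3 replicate 3, with limma adjusted p up to 0.125. Mttp, which transfers lipid onto apolipoprotein B, differed by -0.28, and the sorting receptor Sort1 by -0.33, without passing.

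Of 9 receptors and uptake genes only Vldlr, the VLDL receptor, passed. It had 7.16, 6.43, 6.98 and 7.05 in Tak1/Casp8 livers, against 8.00, 8.51, 8.07 and 8.18 in Tak1/Rip3 livers, so 2.44-fold lower in Tak1/Casp8 livers (-1.29 ± 0.17 SE, 4 livers per group, limma adjusted p = 0.00254). Its brightest probe set differed by only -0.13 (limma adjusted p = 0.899), so its value depends on the dimmer probe sets. Lsr and Cd36, receptors for lipoprotein and fatty acid uptake, differed by 0.26 and 0.28 and did not pass.

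Among 8 genes of plasma lipolysis Gpld1, a phospholipase carried on HDL that cleaves glycosylphosphatidylinositol anchors, was 1.47-fold higher in Tak1/Casp8 livers (11.73 ± 0.04 against 11.17 ± 0.08, SD, n = 4 each, limma adjusted p = 0.00474). Its brightest probe set gave a smaller difference, 0.35, that missed the threshold (limma adjusted p = 0.0502). Lmf1, a chaperone that lipases need to fold, differed by 0.34 and just missed the threshold (limma adjusted p = 0.0539). Angptl8, an inhibitor of lipoprotein lipase, had 9.92, 10.29, 9.40 and 10.30 in Tak1/Casp8 livers, against 10.73, 11.62, 10.44 and 10.50 in Tak1/Rip3 livers. Its groups did not overlap, but it did not pass (-0.84 ± 0.27 SE, 4 livers per group, limma adjusted p = 0.102).

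Of 22 transcription factors and coactivators known to act on apolipoprotein genes 2 passed, both higher in Tak1/Casp8 livers. Ppargc1a, a coactivator of nuclear receptors, was 1.75-fold higher (9.91 ± 0.29 against 9.10 ± 0.34, SD, n = 4 each, limma adjusted p = 0.0288). Its call was lost without Tak1/Casp8 replicate 1 or 3 or Tak1/Rip3 replicate 1, 3 or 4 (limma adjusted p = 0.0733 to 0.0891) and with its brightest probe set (0.42, limma adjusted p = 0.394). Cebpa, a hepatocyte factor, was 1.30-fold higher (10.77 ± 0.08 against 10.39 ± 0.13, SD, n = 4 each, limma adjusted p = 0.0468), and its call was lost without any 1 of the 8 arrays (limma adjusted p = 0.0514 to 0.134). Srebf1, a regulator of lipid synthesis, differed by 0.49 and did not pass.

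**Figure D4:**
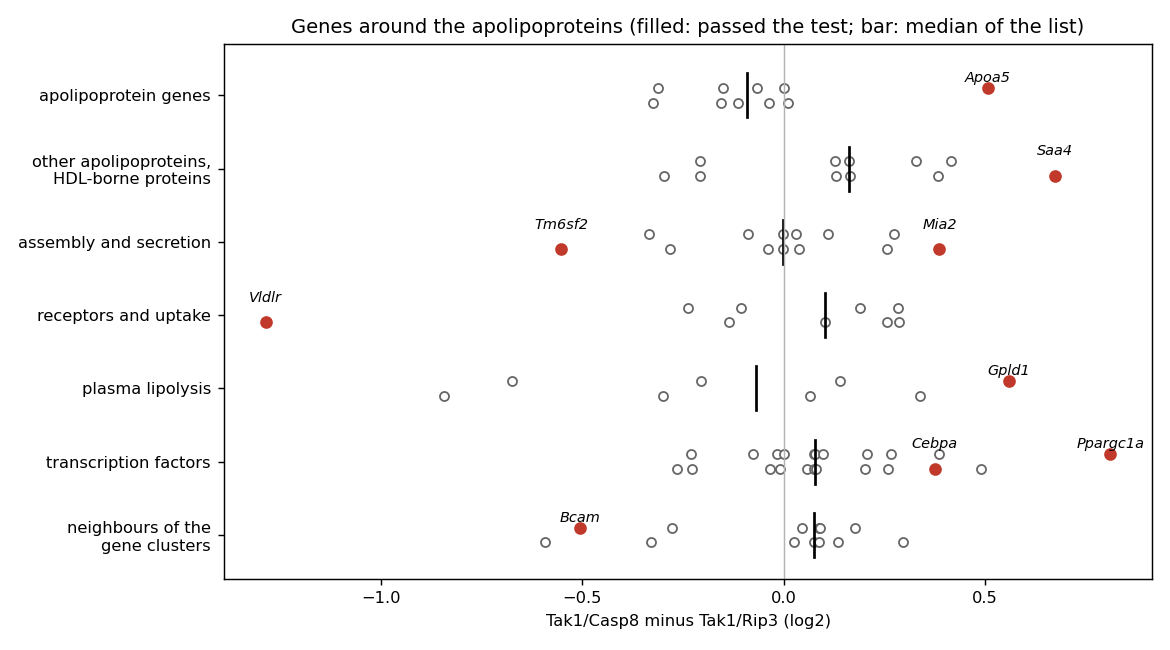
Difference in log2 units (x axis) of each measured gene in the apolipoprotein list and 6 further lists (y axis), filled and named where it passed the test, with a bar at each list's median. The 10 apolipoprotein genes lie between -0.33 and 0.51, and Vldlr is furthest from 0, at -1.29.

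Markers of other liver cells differed between the groups beside these values. Of 10 macrophage markers Trem2 and Gpnmb were lower in Tak1/Casp8 livers (-0.65 and -1.56), and the other 8 were not called. Differences were above 0 for 5 of the 10 and below 0 for 5, with Marco at 0.37 and Clec4f at 0.35. The list averaged 10.0 to 10.6 per array in Tak1/Casp8 livers and 10.2 to 10.7 in Tak1/Rip3 livers, and none of its markers was under the lower quartile of every array. Stellate cell markers averaged 9.95 to 10.2 in Tak1/Casp8 and 10.3 to 10.4 in Tak1/Rip3 livers, with Lrat and Reln lower, Colec11 higher and 3 of 6 not called. Markers of T, NK and B cells averaged 6.25 to 6.44 in Tak1/Casp8 and 6.87 to 7.00 in Tak1/Rip3 livers, and 2 of 5 were lower, Cd79a and Ms4a1. Both lay near the floor of the arrays, whose lower quartiles were 6.47 to 6.52. Ms4a1 was under the lower quartile of every array, and Cd79a, at 4.70 to 5.23, was under it in all Tak1/Casp8 livers. Hepatocyte markers averaged 13.69 to 13.73 in Tak1/Casp8 and 13.58 to 13.64 in Tak1/Rip3 livers, with 0 of 8 called in limma. Bile duct markers averaged 8.11 to 9.10 in Tak1/Casp8 and 8.52 to 8.80 in Tak1/Rip3 livers. Of these 6 only Spp1 passed, higher in Tak1/Casp8 livers (0.97), while 4 had differences below 0, among them Epcam at -1.05, and the list median was -0.20. No endothelial or neutrophil marker was called. The part of these cells in the apolipoprotein values was not tested.

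For the 3 members that varied most over the 8 arrays, the genes with the most similar pattern were sought over the whole table, by the root mean square distance between values centred on each gene's own mean. Apoa5 (SD 0.33 over 8 arrays) was closest to Mgam (0.06), Zfp128 (0.08) and Vmo1 (0.08), of which Mgam and Zfp128 also passed the test, with differences of 0.44 and 0.58. Apoa4 (SD 0.26) was closest to Lrrc55, Metrn and Bloc1s2, each at 0.08. Apoc1 (SD 0.25), whose value is that of a single probe set on every array, was closest to Tamm41 (0.06), Tex13b (0.07) and Adam22 (0.08). With 8 arrays and 19560 genes some close patterns occur by chance, and no test was made.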

How the data were processed

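Total RNA from snap-frozen liver of 8 mice was labelled with biotin after amplification, per the labels' protocols, and measured on Affymetrix arrays. The deposited values are log2 intensities on which the authors ran RMA, according to the submitters' processing notes; no version or genome build is given in the sources used here. RMA removes shifts shared by most genes, and it does not undo any compression near the top of the scale. Arrays have no depth, and their number limits the precision.

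Of 223771 probe sets, 206316 had exactly 1 symbol in an old platform annotation, and 2571 symbols were updated through a RefSeq gene table (GRCm38.p6); the only coordinates printed are those of the RefSeq promoter windows. A gene's value is the median over its probe sets on each array, with no filter. The genotype label set the groups, and no label gives a batch or pairing. Nothing says that the mice came from separate litters. The model (limma 3.58.1 in R 4.3.3, lmFit and eBayes, two-sided) had group as its only term and was tested on simulated data. There it called 15 of 67 planted differences of 0.5, 64 of 67 of 1 and 66 of 66 of 2, with 11 false calls among 156. Differences of 0.5 were therefore mostly missed in the simulation, and smaller ones were not planted. Fewer genes were called there than the 1308 called in the data, so its adjustment was stricter. The shares recovered therefore do not carry over directly to these data. Single probe sets were tested alike, adjusted over all 223771. Figures used matplotlib 3.10.9.

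The members, gene lists and tests were chosen with earlier results of these data known. Named are all members, the targeted genes, the called genes of each list and otherwise its 3 with the smallest adjusted p, and the 3 closest patterns of the 3 most variable members; Apoc4, Mttp, the enterocyte and other marker genes were named after their values were seen. Of 84 further list genes, 8 had no probe set of their own symbol and were not analysed here. Alternatives were quantile normalisation, arrays shifted to a common median, the brightest probe set of a gene, the mean or the dimmer ones (up to and including the middle rank), omission of those above the 99th percentile, a filter at the 30th percentile, trend and robust moderation, array weights, a test with variances separate for each gene and group, thresholds of 0.01 and 0.10, and omission of arrays.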

Additional observations from a re-analysis of the deposited data

How the results depend on the processing

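No paired analysis was possible because the labels give the groups no shared replicate numbers. The count of called members, 1, became 2 with the mean over probe sets, with the dimmer ones alone, without those above the 99th percentile (8 members left), with trend and robust moderation, at a threshold of 0.10 and with Tak1/Casp8 replicate 4 and Tak1/Rip3 replicate 2 both omitted, a choice made after seeing the data. It became 0 with separate variances (2 at an unadjusted p under 0.05) and at a threshold of 0.01, and lay between 0 and 1 with 1 array left out in limma (2 or 3 at an unadjusted p under 0.05). With the brightest probe set the count stayed 1, but Apoc2 passed (-0.39, limma adjusted p = 0.0285) and Apoa5 did not (0.33, limma adjusted p = 0.142). Over all genes, 1308 calls became 759 with the brightest probe set, 833 with the dimmer ones, 115 with separate variances, 406 at 0.01 and 2130 at 0.10, and 706 to 1347 with 1 array left out. The 8 called list genes became 4, 3, 1, 3 and 14 under the same settings, and 4 to 10 with 1 array left out. Of the members' 77 probe sets, 2 calls became 6 with trend and robust moderation, 4 with array weights, 0 with separate variances (16 at an unadjusted p under 0.05), 0 at 0.01 and 5 at 0.10, and 0 to 2 with 1 array left out. The sign turned for Apoa2 without probe sets above the 99th percentile (0.13, where 1 probe set is left) and for Apoe with quantile normalisation (-0.022). Values near 0 also crossed it for Apob with arrays shifted to a common median (0.0036) and with the dimmer probe sets (0.0062), for Apoc1 with both of those arrays omitted (0.0074), and with 1 array left out for Apoa1 (-0.00015) and Apoe (-0.0075 to -0.0036 in 3 fits). It turned for Map3k7 with the mean (0.094), brightest (0.088) and dimmer ones (0.063) of its probe sets, and for Ripk3 with its brightest (-0.036); the cause was not tested. Apoa5, Apoc2, Apoa4, Apom and Apoc3 kept their sign under all 21 alternatives, but many of these could not turn it. The thresholds, the filter, trend and robust moderation and separate variances leave the difference as it was. For Apoa5, Apoc2 and Apom, whose groups did not overlap, omission of arrays could not turn the sign either. Omission of bright probe sets left no value for Apoa1 and Apoe, and whether saturation limits them was not tested.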

Other observations

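The 4 Tak1/Casp8 livers differed among themselves in lipases that were not called between the groups. Hepatic lipase, Lipc, had 10.27, 11.09, 10.59 and 11.31 in Tak1/Casp8 replicates 1 to 4, while the Tak1/Rip3 livers lay between 10.64 and 10.85. Endothelial lipase, Lipg, had 7.08, 8.45, 6.63 and 8.77 in Tak1/Casp8 replicates 1 to 4, and 8.12 to 8.76 in Tak1/Rip3 livers. Lipoprotein lipase, Lpl, was high where these 2 were low, with 11.26, 10.54, 11.36 and 10.15 in Tak1/Casp8 replicates 1 to 4, and 10.67 to 11.24 in Tak1/Rip3 livers. The macrophage marker list averaged 10.50, 10.05, 10.64 and 10.05 in the same 4 Tak1/Casp8 livers, and 10.2 to 10.7 in Tak1/Rip3 livers. These genes were picked after their values were seen, and no test was made.

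The 2 dimmest Apoa4 probe sets carry numbers that follow on from the numbers of the Apoc3 probe sets, whereas the other 4 lie in the same run of numbers as the Apoa5 probe sets. Where each lies on the transcript is not given in the files used here. The 4 brighter ones differed by -0.53 to -0.15, and the 2 dimmest by -0.36 and -0.25.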
